A study of Mus musculus with 28 samples.

Results

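Genes that carry glucose into the liver cell and through glycolysis, 8 in all, were followed in the livers of WT and SIRT6-overexpressing (SIRT6-tg) mice of both sexes. They were *Slc2a1* and *Slc2a2*, which encode the glucose transporters GLUT1 and GLUT2, *Hk2*, *Pfkl*, *Pklr* and *Ldha*, which encode glycolytic enzymes, *Pdk1*, a kinase that switches off pyruvate dehydrogenase, and *Hif1a*, the oxygen-regulated subunit of the transcription factor HIF-1. They were found by matching Ensembl identifiers to gene symbols, which gave 8 of the 49585 features counted, and all 8 passed the low-count filter.

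RNA was sequenced from 28 livers of C57BL/6JOlaHsd mice aged 5 to 7 months, in 4 groups of 7, with WT and SIRT6-tg mice in each sex. All mice were fed standard chow and were killed after a short fast. The transgenic animals came from a single whole-body SIRT6-overexpressing line that was backcrossed to this strain, the WT animals were their littermates, and the promoter of the transgene is not given in the sources used here. Each library held 18758863 to 35393069 reads counted in genes, with a median of 26012203. *Sirt6* itself was at 1.69 to 3.24 CPM (reads of a gene relative to the scaled total of its library) in male WT and 198 to 358 CPM in male SIRT6-tg livers, and at 1.80 to 6.22 CPM in female WT and 16.4 to 50.2 CPM in female SIRT6-tg livers, so that every transgenic liver was above every WT liver of its sex. *Sirt6* was 9.31-fold higher in male than in female SIRT6-tg livers. The 8 hepatocyte markers summed to 94500 to 186000 CPM per library. In male WT mouse 3, markers of fat and pancreas reached 6.03 and 2.82 CPM, and in female WT mouse 2 skeletal muscle markers reached 23.1 CPM. Without male WT mouse 3, *Ldha* left the calls of the male comparison and *Pfkl* those of the difference between the sexes. Without female WT mouse 2, the call of *Pfkl* in that difference was lost and *Slc2a1* was gained between WT males and females. Each of these changes was also seen on leaving out other single libraries, as described below.

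In glycolysis, hexokinases trap glucose as glucose 6-phosphate, phosphofructokinase commits it to breakdown, and pyruvate kinase releases pyruvate, which is either reduced to lactate by lactate dehydrogenase or burned in mitochondria after pyruvate dehydrogenase. Hepatocytes take up glucose through GLUT2 and use the liver forms of phosphofructokinase and pyruvate kinase, whereas many other cells, immune cells among them, use GLUT1 or GLUT3, hexokinases, platelet-type phosphofructokinase and the M form of pyruvate kinase. HIF-1 switches on many of these genes when oxygen is low, and SIRT6, a histone deacetylase, is known to repress HIF-1 glycolytic targets.

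HIF-1 binds DNA at a short core, ACGTG or GCGTG. The RefSeq promoter windows of GRCm38.p6, which run from 250 bases before a transcription start to 50 bases after it, were searched for both cores on both strands. All 8 genes had a window. At least 1 core was found for *Hif1a*, *Hk2*, *Pfkl*, *Ldha*, *Pdk1* and *Slc2a1*, and none for *Pklr* or *Slc2a2*, that is for 75.0% of the 8, against 46.7% of all 27025 genes with a window. The palindrome CACGTG, which holds ACGTG on both strands, was found for *Hif1a* and *Ldha* and in 8.09% of all genes. A match is a description of letters and not a bound site, and no match says only that the letters are not in the window. The 250 bases upstream of the start are printed for the 4 genes that passed the test in males, 5′ to 3′ on the strand of the gene, with each core (or its reverse complement) in capitals. *Ldha* and *Pdk1* have 2 starts each, and the more upstream one was taken.
*Hk2*, chr6:82774455-82774704, minus strand: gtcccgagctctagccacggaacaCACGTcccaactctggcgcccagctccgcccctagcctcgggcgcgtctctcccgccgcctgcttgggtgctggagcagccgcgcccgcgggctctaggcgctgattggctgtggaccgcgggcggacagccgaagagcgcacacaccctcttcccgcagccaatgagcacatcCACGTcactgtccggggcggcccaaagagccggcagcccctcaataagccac
*Pfkl*, chr10:78009808-78010057, minus strand: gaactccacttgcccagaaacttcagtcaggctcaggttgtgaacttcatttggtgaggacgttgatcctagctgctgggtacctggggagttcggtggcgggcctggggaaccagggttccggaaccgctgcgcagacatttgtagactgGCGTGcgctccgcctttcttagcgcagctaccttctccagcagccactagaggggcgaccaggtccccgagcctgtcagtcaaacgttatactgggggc
*Ldha*, chr7:46845554-46845803, plus strand: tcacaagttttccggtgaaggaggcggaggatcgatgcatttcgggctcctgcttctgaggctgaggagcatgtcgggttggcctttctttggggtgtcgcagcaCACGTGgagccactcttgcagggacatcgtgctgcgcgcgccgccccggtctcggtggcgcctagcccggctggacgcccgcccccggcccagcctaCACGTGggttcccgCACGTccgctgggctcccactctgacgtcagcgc
*Pdk1*, chr2:71872974-71873223, plus strand: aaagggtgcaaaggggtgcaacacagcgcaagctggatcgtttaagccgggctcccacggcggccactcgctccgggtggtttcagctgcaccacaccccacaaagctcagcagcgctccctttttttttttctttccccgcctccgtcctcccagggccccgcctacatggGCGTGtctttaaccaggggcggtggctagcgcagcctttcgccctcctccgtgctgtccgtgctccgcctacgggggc
The *Hk2* sequence holds 2 cores, both on the strand opposite to the gene, the *Pfkl* and *Pdk1* sequences hold 1 each, and the *Ldha* sequence holds 5, of which 4 lie in 2 copies of CACGTG.

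On GRCm38, *Hif1a* lies at chr12:73901375-73947530, *Hk2* at chr6:82725025-82774454, *Pfkl* at chr10:77986947-78010083 and *Pklr* at chr3:89136142-89146784. *Ldha* lies at chr7:46841475-46855627, *Pdk1* at chr2:71873224-71903858, *Slc2a1* at chr4:119108711-119137983 and *Slc2a2* at chr3:28697903-28731359. All are protein-coding, and counts were taken over their exons.

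The 8 genes were expressed at very different levels. Divided by the length of all exons, their mean levels fell in the same order in each of the 4 groups: *Ldha*, *Slc2a2*, *Pklr*, *Pdk1*, *Hif1a*, *Pfkl*, *Slc2a1* and *Hk2*. In male WT livers the mean level of *Ldha* was 158 ± 15.4 CPM per kb (SD, n = 7) and that of *Hk2* was 1.19 ± 0.499 CPM per kb. The ranges of *Slc2a2* and *Pklr* overlapped in all groups but female WT, and those of *Pdk1* and *Hif1a* overlapped in male WT. The ranges of all other neighbours in the order were apart.

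**Figure D1:**
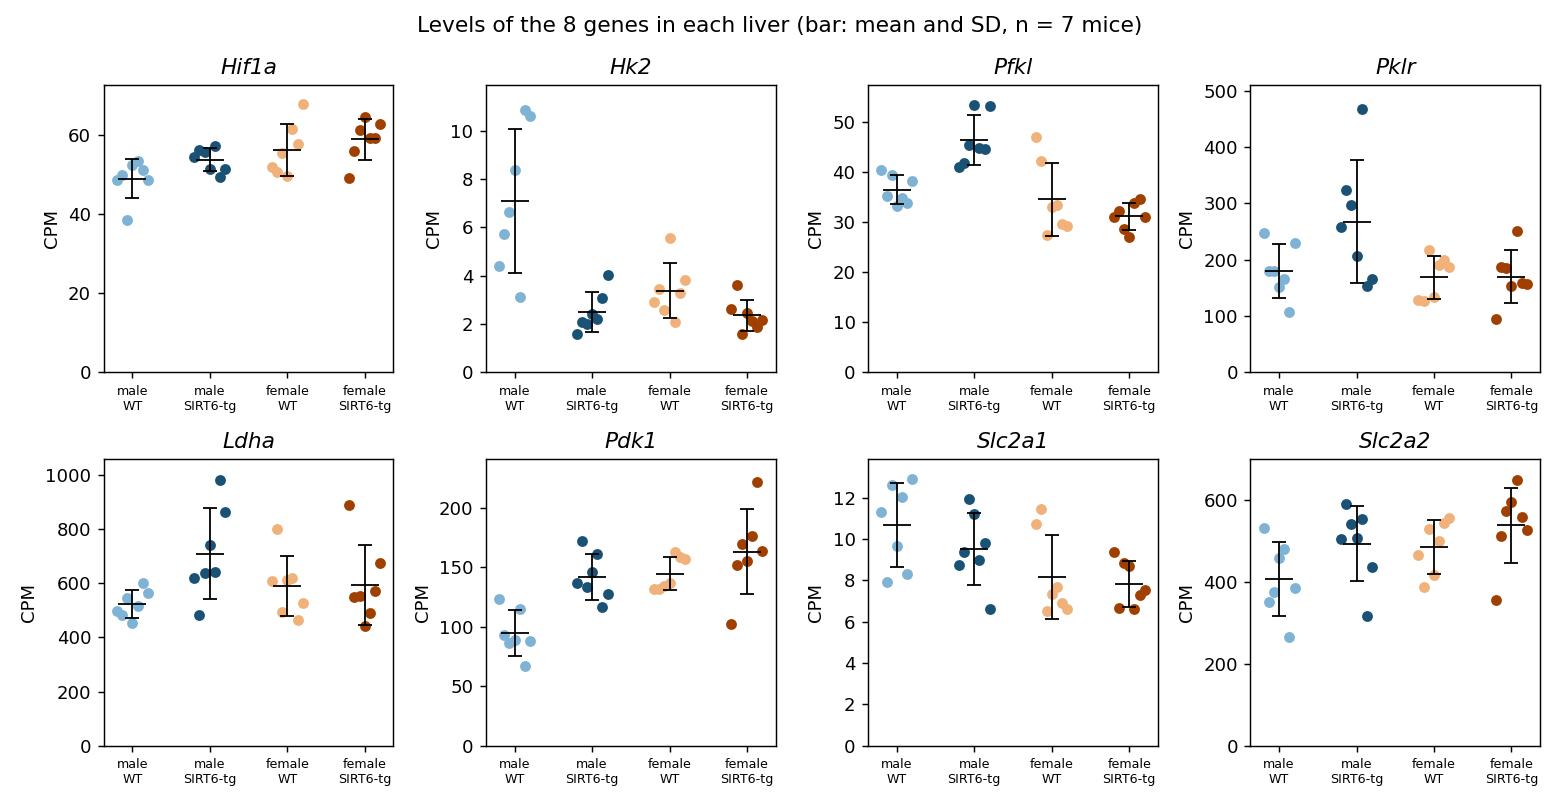
CPM of each gene (vertical axes, from 0) in each of the 28 livers, 1 point per mouse, by sex and genotype. Bars give the mean and SD of 7 mice. *Hk2* was at 3.11 to 10.9 CPM in male WT livers and at 1.56 to 4.03 CPM in male SIRT6-tg livers.

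The first question was whether the genes differ between SIRT6-tg and WT males. *Hk2* fell in SIRT6-tg males, and *Pfkl*, *Ldha* and *Pdk1* rose. These 4 of 8 genes passed an adjusted p of 0.05 in edgeR's quasi-likelihood test, against 20.7% of all 21583 genes tested. The 3 that rose stand against 9.68% of all genes called higher, and the 1 that fell against 11.0% called lower. The median log2 fold change was 0.31 for the 8 genes and 0.06 over all genes.

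*Hk2* encodes hexokinase 2, the hexokinase of muscle, fat and many proliferating cells. Its level was lowest at 3.11, median 6.63 and highest at 10.9 CPM in male WT livers. In male SIRT6-tg livers it was lowest at 1.56, median 2.21 and highest at 4.03 CPM. The groups overlapped, with 6 of 7 SIRT6-tg livers below all WT livers. Expression fell by 65.4%, with a log2 fold change of -1.53 ± 0.25 (SE) and an adjusted p of 3.34e-05. The change stayed between -1.84 and -1.40 in every alternative analysis and without any 1 library.

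*Pfkl*, the liver subunit of phosphofructokinase, was at 33.1, 35.2 and 40.5 CPM (lowest, median and highest) in male WT livers and at 41.0, 44.7 and 53.3 CPM in male SIRT6-tg livers. The groups did not overlap, with every SIRT6-tg liver above every WT liver, as held for 2.60% of all genes. The log2 fold change was 0.34 ± 0.10 (SE, adjusted p = 0.0159). The adjusted p was 0.0701 without male WT mouse 4 and 0.0503 without male SIRT6-tg mouse 4.

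*Ldha* encodes the A subunit of lactate dehydrogenase, which turns pyruvate into lactate. It was at 453, 516 and 601 CPM in male WT livers and at 483, 640 and 982 CPM in male SIRT6-tg livers. Of the 7 SIRT6-tg livers 6 were above all WT livers, and male SIRT6-tg mice 6 and 7 were the highest. The log2 fold change was 0.44 ± 0.14 (SE, adjusted p = 0.0287). The call was lost on leaving out any 1 of 7 libraries, with an adjusted p of up to 0.101: male WT mouse 1 (0.0637), 2 (0.0693), 3 (0.053) or 4 (0.101), and male SIRT6-tg mouse 4 (0.0546), 6 (0.0976) or 7 (0.0779). It was also lost with the 2 male groups alone in the fit (0.0628). The processed pseudogenes *Ldha-ps* and *Ldha-ps2* collected 21 and 31 reads over all 28 libraries. Any reads that *Ldha* shares with them are lost when only uniquely mapped reads are counted, and the effect on its level was not tested.

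*Pdk1* encodes a pyruvate dehydrogenase kinase, which keeps pyruvate out of the mitochondrial oxidation route. Its levels were 67.0, 89.1 and 124 CPM in male WT livers and 116, 137 and 172 CPM in male SIRT6-tg livers. Again 6 of 7 SIRT6-tg livers were above all WT livers. The log2 fold change was 0.58 ± 0.13 (SE), a rise of 49.9%, with an adjusted p of 0.00145.

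The remaining 4 genes did not pass the test in males. *Pklr*, which encodes the liver form of pyruvate kinase, was at 106, 179 and 248 CPM in WT and at 153, 258 and 467 CPM in SIRT6-tg males, with 4 of 7 SIRT6-tg livers above all WT livers. Its log2 fold change was 0.57 ± 0.22 (SE, adjusted p = 0.0637), with a 95% interval of 0.14 to 1.00. It passed without male WT mouse 1 (adjusted p = 0.0433), male SIRT6-tg mouse 6 (0.0332) or male SIRT6-tg mouse 7 (0.0422), and with edgeR's filterByExpr filter (0.0495). Exons of *Pklr* overlap those of *Hcn3* on the other strand over 711 bases, and the library kit does not mark strand. *Hcn3* collected 14530 reads over all 28 libraries, and the effect of the overlap on the counts of *Pklr* was not tested.

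*Slc2a2* (GLUT2, the main hepatocyte transporter) was at 265, 386 and 532 CPM in WT and at 317, 508 and 591 CPM in SIRT6-tg males, a log2 fold change of 0.28 ± 0.14 (SE, adjusted p = 0.173). *Slc2a1* (GLUT1) was at 7.93, 11.3 and 12.9 CPM in WT and at 6.63, 9.37 and 11.9 CPM in SIRT6-tg males, a log2 fold change of -0.16 ± 0.15 (SE, adjusted p = 0.478). *Hif1a* was at 38.6, 49.8 and 53.5 CPM in WT and at 49.4, 54.6 and 57.2 CPM in SIRT6-tg males, a log2 fold change of 0.14 ± 0.08 (SE, adjusted p = 0.272). The WT and SIRT6-tg ranges of all 3 genes overlapped, and the 95% interval for *Hif1a* ran from -0.03 to 0.30.

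The 3 rises depended on how the libraries were scaled, and the fall did not. Under TMM, the scaling used here, the median log2 fold change of all genes in males was 0.06, and under library size alone it was -0.22. Under library size alone the log2 fold changes were -1.84 for *Hk2* (adjusted p = 1.95e-06), 0.06 for *Pfkl* (0.730), 0.15 for *Ldha* (0.505) and 0.31 for *Pdk1* (0.0920), so that none of the 8 passed as higher. RLE scaling kept the calls of *Pfkl* and *Pdk1*, and upper-quartile scaling kept that of *Pdk1*. Under library size alone *Slc2a1* passed the test as lower (-0.44, adjusted p = 0.0330), and *Hif1a* was at -0.14 (0.344).

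**Figure D2:**
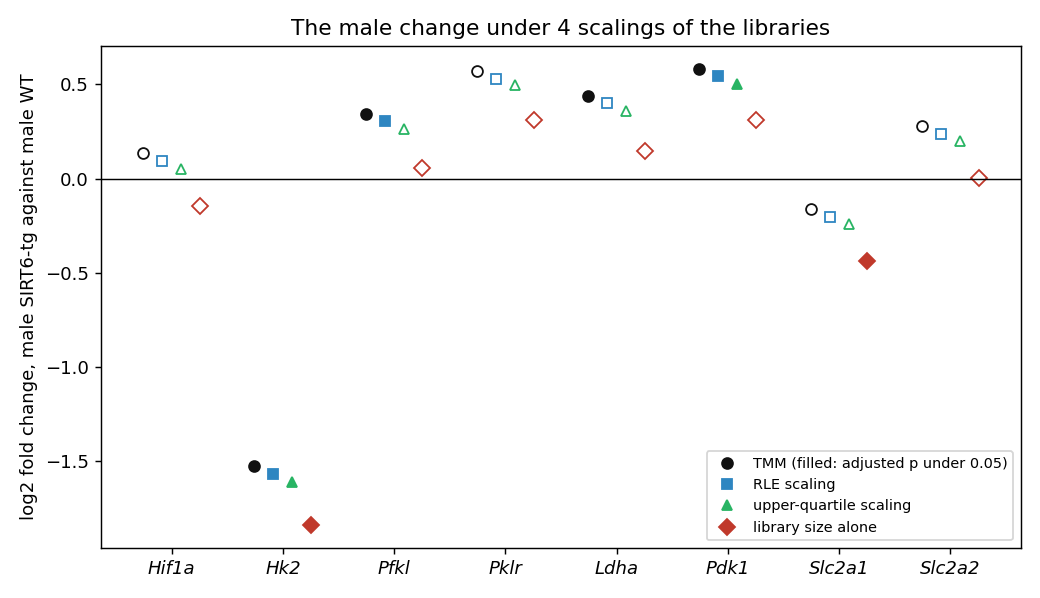
Log2 fold change of each gene in male SIRT6-tg against male WT livers (vertical axis) under TMM, RLE, upper-quartile scaling and library size alone. Filled symbols passed an adjusted p of 0.05. *Hk2* was filled and below 0 under all 4, whereas *Pfkl*, *Ldha* and *Pdk1* were filled under TMM and open under library size alone.

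The fall of *Hk2* moved together with markers of immune cells. All 8 T cell markers and all 9 macrophage markers were called lower in SIRT6-tg males, as were 3 of 4 B cell and 6 of 6 stellate cell markers. The T cell markers summed to 14.6 to 41.2 CPM in WT and 4.73 to 7.43 CPM in SIRT6-tg males, and the macrophage markers to 247 to 785 CPM and 206 to 343 CPM. None of these T cell or macrophage markers was without reads across a whole group. Of 8 hepatocyte markers 2 were called higher under TMM, with sums of 94500 to 133000 CPM in WT and 119000 to 164000 CPM in SIRT6-tg males. None of 4 neutrophil or 4 cholangiocyte markers tested was called in edgeR (1 of each at an unadjusted p under 0.05), while 1 of 7 endothelial markers was lower and 1 of 6 erythroid markers higher. These counts stand against 11.0% of all genes called lower and 9.68% called higher in males. In bulk liver, fewer cells of a type and less RNA per cell cannot be told apart, and the part of either in the *Hk2* change was not tested.

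Within male WT livers, the 3 with the highest *Hk2* (mouse 6 at 10.9, mouse 7 at 10.6 and mouse 4 at 8.37 CPM) were also the 3 with the highest macrophage marker sums (633, 785 and 604 CPM). Mouse 5, with the lowest *Hk2* (3.11 CPM), had the lowest T cell marker sum (14.6 CPM). The orders did not match throughout. Mouse 1 had the lowest macrophage sum (247 CPM) and mouse 5 the next (381 CPM), and mouse 7 had the median T cell sum (32.6 CPM). In female SIRT6-tg livers, mouse 2 had the highest *Hk2* (3.61 CPM) but a macrophage sum (297 CPM) below all but 1 of the others. Over all 28 libraries, after the mean of each group was taken off, the gene closest to *Hk2* among 12334 was *Cd74*, the invariant chain of MHC class II (Pearson r = 0.891), followed by *Ncf1*, a subunit of the phagocyte NADPH oxidase (0.877). These libraries share depth and scaling, and the correlations are given as a description.

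**Figure D3:**
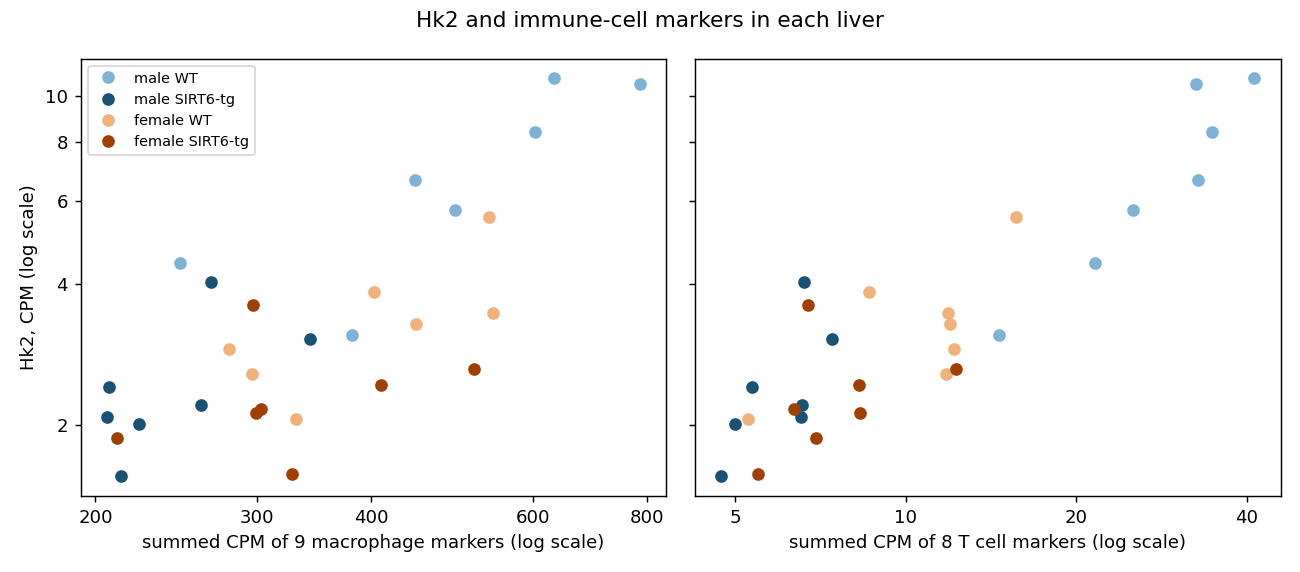
*Hk2* (vertical axis, CPM, log scale) against the summed CPM of 9 macrophage markers (left) and 8 T cell markers (right, log scales), 1 point per liver, coloured by group. Male SIRT6-tg livers lay at 1.56 to 4.03 CPM of *Hk2* and 4.73 to 7.43 CPM of T cell markers, and male WT livers at 3.11 to 10.9 CPM and 14.6 to 41.2 CPM.

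In females none of the 8 genes passed the test between SIRT6-tg and WT, where 0.0278% of all genes did (6 of 21583). With edgeR, 1 of the 8 had an unadjusted p under 0.05, against 5.62% of all genes, and DESeq2 also called none. That gene was *Hk2*, at 2.06, 3.29 and 5.55 CPM in WT and 1.58, 2.17 and 3.61 CPM in SIRT6-tg females, a log2 fold change of -0.51 ± 0.25 (SE, edgeR unadjusted p = 0.05, adjusted p = 0.889). The groups overlapped, with 2 of 7 SIRT6-tg livers below all WT livers. T cell markers summed to 5.28 to 15.7 CPM in WT and 5.50 to 12.3 CPM in SIRT6-tg females. Macrophage markers summed to 280 to 543 CPM in WT and 211 to 518 CPM in SIRT6-tg females. In edgeR, 0 of 8 T cell and 0 of 9 macrophage markers were called, with 3 and 2 at an unadjusted p under 0.05. All 8 and all 9 had a negative log2 fold change, with medians of -0.48 and -0.23.

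*Pfkl* was at 27.4, 32.9 and 46.9 CPM in WT and 26.9, 31.1 and 34.6 CPM in SIRT6-tg females, a log2 fold change of -0.15 ± 0.10 (SE, 95% interval -0.35 to 0.06). *Ldha* was at 466, 610 and 799 CPM in WT and 442, 554 and 887 CPM in SIRT6-tg females (log2 fold change 0.01, interval -0.27 to 0.30). *Pdk1* was at 132, 137 and 163 CPM in WT and 102, 164 and 222 CPM in SIRT6-tg females (log2 fold change 0.17, interval -0.08 to 0.43). In all 3 the groups overlapped.

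*Pklr* was at 126, 186 and 217 CPM in WT and 93.8, 159 and 250 CPM in SIRT6-tg females, with a log2 fold change of 0.01 (interval -0.42 to 0.44). *Slc2a2* was at 387, 501 and 557 CPM in WT and 358, 558 and 649 CPM in SIRT6-tg females (0.15, interval -0.13 to 0.43), and *Slc2a1* at 6.51, 7.35 and 11.4 CPM and 6.59, 7.51 and 9.37 CPM (-0.06, interval -0.35 to 0.23). *Hif1a* was at 49.6, 55.5 and 67.8 CPM in WT and 49.2, 59.4 and 64.6 CPM in SIRT6-tg females (0.07, interval -0.10 to 0.23). The ranges of all 4 genes overlapped between the groups.

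**Figure D4:**
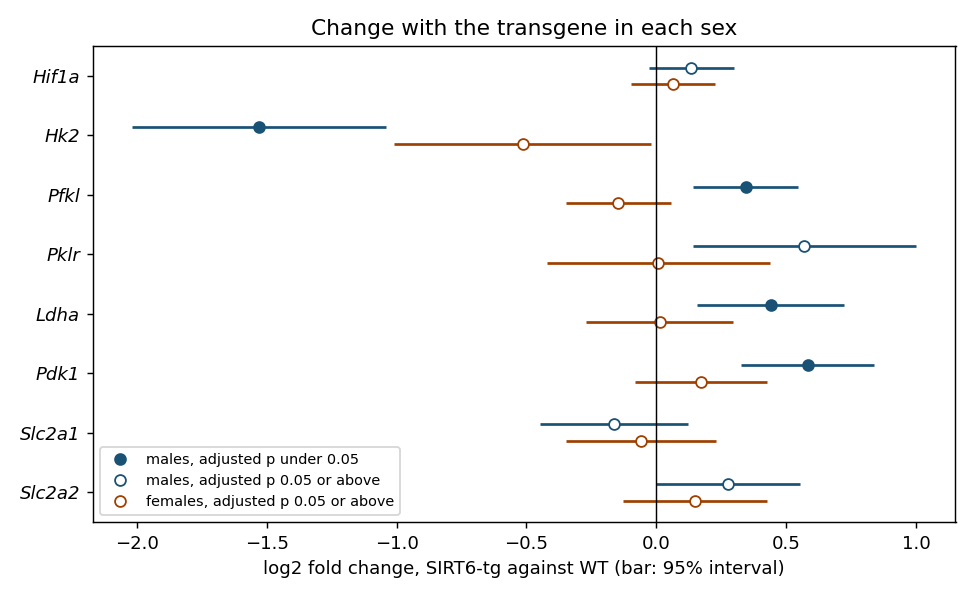
Log2 fold change of SIRT6-tg against WT (horizontal axis) for each gene in males (blue) and females (brown), with the 95% interval as a bar. Filled points passed an adjusted p of 0.05: *Hk2* (-1.53), *Pfkl* (0.34), *Ldha* (0.44) and *Pdk1* (0.58) in males and none in females.

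Whether the genotype effect itself differed between males and females was tested as an interaction, which 5.05% of all genes passed. Of the 8 genes *Pfkl* passed, with an effect 0.49 ± 0.15 (SE, adjusted p = 0.0439) larger on the log2 scale in males. This call was lost without any 1 of 20 of the 28 libraries (adjusted p up to 0.104) and under library size alone (0.19, adjusted p = 0.433). The difference for *Hk2* was -1.02 ± 0.35 (SE, adjusted p = 0.0948), with a 95% interval of -1.71 to -0.32, and it passed under library size alone (adjusted p = 0.0154), in DESeq2 (0.0480), and without male WT mouse 5 (0.0336), male SIRT6-tg mouse 7 (0.0471) or female WT mouse 4 (0.0372). *Ldha* (0.43) and *Pdk1* (0.41) had adjusted p of 0.255 and 0.217, so that a larger rise in males than in females was not shown for them. *Sirt6* rose 102-fold in male and 10.5-fold in female SIRT6-tg livers, so sex and the level of the transgene cannot be told apart here.

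Between male and female WT livers, *Hk2* and *Pdk1* differed, 2 of the 8 genes against 12.4% of all genes. *Hk2* was higher in males, with a log2 difference of 1.08 ± 0.24 (SE, adjusted p = 0.00281) and 5 of 7 male WT livers above all female WT livers. *Pdk1* was lower in males, by -0.61 ± 0.13 on the log2 scale (SE, adjusted p = 0.00168), and all 7 male WT livers (67.0 to 124 CPM) were below all 7 female WT livers (132 to 163 CPM), as held for 1.64% of all genes. *Slc2a1* was at 0.39 ± 0.15 (SE, adjusted p = 0.0802), and it passed without male WT mouse 2 (0.0378), female WT mouse 1 (0.0303) or female WT mouse 2 (0.0188), in DESeq2 (0.0461) and under library size alone (0.00491). T cell markers also differed between the sexes in WT livers, with 8 of 8 called higher in males, as did 2 of 9 macrophage markers.

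Between male and female SIRT6-tg livers, *Pfkl* and *Pklr* differed, 2 of the 8 genes against 23.1% of all genes. Both were higher in males, as were 12.9% of all genes. *Pfkl* was higher in males by 0.57 ± 0.10 (SE, log2 scale, adjusted p = 0.00017), and all 7 male livers were above all 7 female livers, as held for 3.58% of all genes. *Pklr* was higher in males by 0.66 ± 0.22 (SE, adjusted p = 0.0300), a call lost without male SIRT6-tg mouse 2 (0.0563) or 5 (0.107) or without female SIRT6-tg mouse 1 (0.0595), 4 (0.0582) or 7 (0.0507), and lost under library size alone. *Hk2*, at 2.21 CPM in male and 2.17 CPM in female SIRT6-tg livers (medians), had a log2 difference of 0.06 (95% interval -0.44 to 0.56), and *Pdk1* one of -0.20 (-0.45 to 0.06). *Ldha* was at 0.25 ± 0.14 (SE, adjusted p = 0.213) and passed without female SIRT6-tg mouse 1, the highest female *Ldha* value at 887 CPM (adjusted p = 0.0389). Both comparisons between the sexes use the same libraries as the genotype comparisons and are not independent of them.

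The pathway around the 8 genes was read from 9 lists of 83 further genes. In males, 21 of the 83 were called higher and 15 lower under TMM, where 9.68% and 11.0% of all genes were. Under library size alone the 15 became 16 and the 21 became 0, while the median log2 fold change of all genes went from 0.06 to -0.22. RLE scaling gave 14 higher and DESeq2 17, with 15 lower in each. As to the difference between the sexes, 1 of the 83 passed as higher and 7 as lower in males, against 1.20% and 3.84% of all genes. In females 0 of 83 passed in edgeR or DESeq2, with 1 at an unadjusted p under 0.05.

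Among the other hexose transporters, 1 of 8 was higher and 3 were lower in males. *Slc2a6* fell from 0.972, 1.98 and 3.17 CPM in WT to 0.0750, 0.329 and 0.621 CPM in SIRT6-tg males, a log2 fold change of -2.68 ± 0.33 (SE, adjusted p = 5.86e-07), with no overlap, as held for 4.37% of all genes in this direction. *Slc2a3*, the gene of GLUT3, fell as well (-0.62, adjusted p = 0.0157). *Slc2a8* rose by 0.30 (adjusted p = 0.0185), but not under library size alone (0.02) nor without male WT mouse 4 (adjusted p = 0.0793).

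Of the 5 other genes of hexose phosphorylation, *Hk1* and *Hk3* fell and *Gckr* rose. *Hk3*, a hexokinase of leukocytes, fell from 8.38, 15.1 and 27.5 CPM to 2.79, 4.36 and 6.07 CPM (-2.0 ± 0.29, SE, adjusted p = 7.16e-06), with no overlap. *Hk1* fell by 0.93 on the log2 scale (adjusted p = 8.78e-05). *Gckr* was at 0.23 (adjusted p = 0.0412) and at -0.05 under library size alone, and its call was lost in 21 of the 28 analyses without 1 library.

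Of the 16 other glycolytic enzymes, 6 were higher and 2 lower in males. The 2 that fell were *Pfkp*, the platelet form of phosphofructokinase (-1.5 ± 0.17, SE, adjusted p = 1.18e-07), and *Pkm*, the M form of pyruvate kinase (-1.36 ± 0.18, SE, adjusted p = 1.26e-06). *Pkm* was at 18.9, 30.6 and 48.0 CPM in WT and at 10.4, 12.9 and 14.9 CPM in SIRT6-tg males, so the groups did not overlap. *Gapdh* was among those that rose (0.44 ± 0.12, SE, adjusted p = 0.008). Under library size alone it was at 0.16 and did not pass. The level of *Gapdh* is uncertain, because reads shared with its processed pseudogenes are lost when only uniquely mapped reads are counted.

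**Figure D5:**
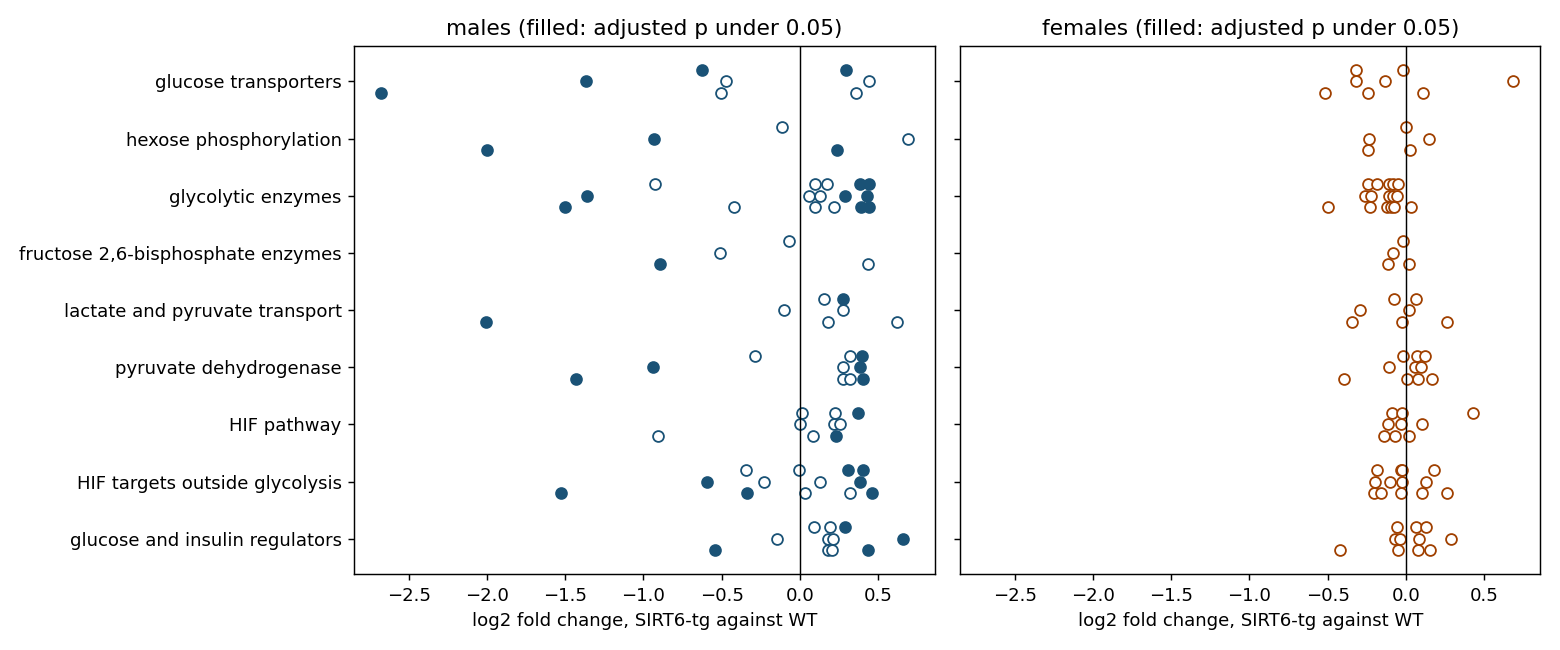
Log2 fold change of SIRT6-tg against WT (horizontal axis) for 83 further genes in 9 lists (vertical axis), in males (left) and females (right), 1 point per gene. Filled points passed an adjusted p of 0.05 under TMM: 36 of 83 in males (21 higher, 15 lower) and 0 in females.

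As a description, genes that serve the same step were set against each other in each library, and so were *Epas1* and *Hif1a*. On pairs picked after their values were seen, the ratio of *Pklr* to *Pkm* per kb was 3.41 to 19.9 (median 9.06) in male WT and 16 to 51.9 (median 30.9) in male SIRT6-tg livers. The ratio of *Pfkl* to *Pfkp* was 6.87 to 16.1 in male WT and 28.9 to 51.5 in male SIRT6-tg livers. The male ranges overlapped for *Pklr* to *Pkm* and for the other pairs below. The ratio of *Slc2a2* to *Slc2a1* was 18.1 to 29.0 in male WT and 19.7 to 40.3 in male SIRT6-tg livers, and that of *Ldha* to *Ldhb* was 85.8 to 127 and 81.0 to 166. The ratio of *Epas1* to *Hif1a* was 2.19 to 3.61 and 2.62 to 4.19. In females the *Pklr* to *Pkm* ratio was 9.41 to 24 in WT and 7.85 to 33.5 in SIRT6-tg livers. Such a ratio does not depend on the scaling of the libraries. The T cell and macrophage markers given above were lower in SIRT6-tg males too, and their part in the ratios was not tested.

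Beyond pyruvate, *Slc16a3*, the lactate exporter MCT4, fell in males (-2.0 ± 0.25, SE, adjusted p = 7.75e-07), from 0.942, 1.77 and 2.47 CPM to 0.207, 0.388 and 0.619 CPM with no overlap. *Slc16a1* (MCT1), which carries lactate in hepatocytes, was at 0.18 (adjusted p = 0.554). *Mpc1*, a subunit of the mitochondrial pyruvate carrier, passed as higher (0.28, adjusted p = 0.0468) but not under library size alone (-0.0074), and its call was lost in 23 of the 28 analyses without 1 library. Of 10 other genes of pyruvate dehydrogenase, 3 were higher and 2 lower. The phosphatase *Pdp1* (-0.94, adjusted p = 0.000189) and the kinase *Pdk3* (-1.43, adjusted p = 0.000102) fell, the subunit *Dld* rose (0.39, adjusted p = 0.00113), and the kinase *Pdk4*, induced by fasting, was at -0.29 ± 0.41 (SE, adjusted p = 0.696). *Dld* was at 0.10 under library size alone.

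Of the 4 enzymes that make and break fructose 2,6-bisphosphate, the activator of phosphofructokinase, *Pfkfb4* fell in males (-0.89 ± 0.19, SE, adjusted p = 0.00067) and the other 3 did not pass. *Pfkfb1*, the liver form, was at 0.44 (adjusted p = 0.0700).

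Partners and regulators of HIF1A gave 2 of 9 higher and 0 lower in males under TMM. *Egln1*, a prolyl hydroxylase that marks HIF1A for destruction, was at 0.23 (adjusted p = 0.0156) and *Cited2*, a competitor of HIF-1, at 0.37 (adjusted p = 0.0406). Neither passed under library size alone (-0.05 and 0.08), *Egln1* did not pass without male WT mouse 4 (adjusted p = 0.0901), and *Cited2* was lost in 16 of 28 analyses without 1 library. *Epas1*, the gene of HIF2A, was at 0.22 ± 0.16 (SE, adjusted p = 0.36).

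Of 13 HIF-1 targets that are not glycolytic enzymes, 4 were higher and 3 lower in males, with a median log2 fold change of 0.03 against 0.06 over all genes. *Car9*, carbonic anhydrase 9, fell (-1.53 ± 0.40, SE, adjusted p = 0.00625), though its levels were low, at 0.251 to 0.534 CPM in WT and 0 to 0.248 CPM in SIRT6-tg males. *Mxi1* (0.31, adjusted p = 0.0107), *Bnip3* (0.41, adjusted p = 0.0138) and *Vegfa* (0.39, adjusted p = 0.0268) rose, and under library size alone they were at 0.03, 0.13 and 0.12 and did not pass. The call of *Vegfa* was also lost without any 1 of 8 male libraries (adjusted p up to 0.0784).

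Of 11 regulators of glycolytic genes by glucose and insulin, 3 were higher and 1 lower in males. *Srebf1*, which mediates the action of insulin on lipid synthesis, rose by 0.66 ± 0.15 (SE, adjusted p = 0.00227). *Mlxipl*, the gene of the carbohydrate response factor ChREBP, rose by 0.43 ± 0.15 (SE, adjusted p = 0.0404) and its partner *Mlx* by 0.29 ± 0.07 (SE, adjusted p = 0.00394). *Txnip*, a glucose-induced gene, was at 0.18 (adjusted p = 0.717). Under library size alone *Srebf1* was at 0.38 (adjusted p = 0.0960), *Mlxipl* at 0.17 (0.557) and *Mlx* at 0.0042 (0.990), and the call of *Mlxipl* was lost in 15 of the 28 analyses without 1 library.

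The 8 genes did not all vary together from mouse to mouse. With group means taken off, over the 28 libraries, *Pdk1*, *Pklr* and *Slc2a2* varied together (Pearson r of 0.67 to 0.81 between pairs), and *Ldha* varied against *Slc2a2* (-0.79) and *Pklr* (-0.70). *Hif1a* was correlated with *Slc2a2* (0.54) and against *Ldha* (-0.54). The genes closest to the others were *Ptgr2* for *Slc2a2* (0.903), *Hdhd5* for *Ldha* (0.88), *Nr1d2*, a clock repressor, for *Pdk1* (0.865), *Zfp131* for *Hif1a* (0.865), *Myo1d* for *Pklr* (0.855), *Igfbp4* for *Pfkl* (0.827) and *Atg4d* for *Slc2a1* (0.773), each among 12334 genes.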

How the data were processed

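The authors made libraries from total liver RNA with an NEBNext Ultra kit, which does not mark strand, used STAR 2.5.0a for alignment to the mm10 genome, and tallied uniquely mapped reads by gene in HTSeq. The deposited values are raw counts per gene in each of 28 libraries, 1 per mouse. The strand setting of the counting is not given in the sources used here. The 8 genes and the gene lists were chosen with earlier results of these data known.

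Genes averaging 0.5 normalized counts or more were kept (21583). All 28 libraries entered 1 fit of edgeR 4.0.16 in R 4.3.3 (TMM scaling, robust quasi-likelihood test, no covariates), with Benjamini-Hochberg adjustment over all genes and a threshold of 0.05, and every adjusted p is from it unless another tool is named. Levels are CPM scaled by TMM, and levels per kb are divided by the union of exons. Named genes are all 8 members, at most 3 of each list with the lowest adjusted p in males and 1 in females, and 10 further genes with a known liver role, some of which are not reported here. Alternatives were other scalings, other filters, DESeq2 1.42.0, the replicate number as a block, the 2 groups alone and each library left out. Sequencing depth sets the counting error, which the replicate spread includes.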

Additional observations from a re-analysis of the deposited data

Results flagged for a closer look

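Among the 32 sets of 7 livers examined (8 genes in 4 groups), 1 held a library apart from the other 6: *Hif1a* was at 38.6 CPM in male WT mouse 3, with a gap of 0.67 of the range to the next. The threshold for such a gap is one that chance passes in about 1 of 20 groups. Markers of fat (6.03 CPM) and pancreas (2.82 CPM) were highest in the same liver, and their part was not tested. Without it the log2 fold change of *Hif1a* in males was 0.06 (adjusted p = 0.663).

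Among the 8 genes and the named genes, 9 passed the interaction test of the genotype effect between males and females in edgeR. Of all genes, 1.20% passed as higher and 3.84% as lower in males. Many named genes were picked for a low adjusted p in males, which enters this difference, so the count is a description. Sex and the level of the transgene cannot be told apart in it. The difference is given as the male minus the female log2 fold change. It was 0.49 for *Pfkl* (adjusted p = 0.0439) and 0.43 for *Slc2a8* (0.0467), both of which did not pass under library size alone (0.19 and 0.14). The difference was -2.16 for *Slc2a6* (0.00588), -1.76 for *Hk3* (0.00782) and -0.96 for *Hk1* (0.0107). It was -1.41 for *Pfkp* (0.000472), -1.10 for *Pkm* (0.00709), -1.71 for *Slc16a3* (0.00412) and -1.11 for *Pdp1* (0.00616). All 8 T cell and all 9 macrophage markers also had a more negative effect in males. The difference passed the test for 5 and 3 of them, and their part was not tested.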

How the results depend on the processing

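The male fall of *Hk2* passed in every alternative. The number of the 8 genes called in males was 4, and 2 under upper-quartile scaling, 2 under library size alone, 3 under RLE scaling and with the 2 groups alone, 5 with the filterByExpr filter (*Pklr* added), and 2 to 4 without 1 library (2 without male WT mouse 4 or male SIRT6-tg mouse 4). For the difference between the sexes the number was 1, and 0 under RLE scaling, upper-quartile scaling and no filter, 2 in DESeq2, and 0 to 1 without 1 library. Between WT males and females it was 2, and 4 under library size alone, 3 in DESeq2 (*Slc2a1* added) and 2 to 3 without 1 library. Between SIRT6-tg males and females it was 2, and 1 under library size alone, with no filter and with the 2 groups alone, and 1 to 2 without 1 library. No gene of the 8 was called in females under any alternative.

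Under library size alone, log2 fold changes in males turned to -0.14 for *Hif1a*, -0.046 for *Gckr*, -0.0074 for *Mpc1*, -0.050 for *Egln1*, -0.038 for *Egln2*, -0.10 for *Slc16a1*, -0.047 for *Epas1* and -0.094 for *Txnip*. The difference between the sexes turned to -0.22 for *Hif1a* and -0.16 for *Slc2a2*, WT males against females to 0.023 for *Ldha* and 0.14 for *Sirt6*, and SIRT6-tg males against females to -0.060 for *Hk2*. Under upper-quartile scaling *Hif1a* (difference) was at -0.0015, *Hk2* (SIRT6-tg males against females) at -0.014 and *Pklr* (females) at -0.0049, and with the filterByExpr filter *Pklr* (females) was at -0.0014. Of these, *Gckr*, *Mpc1* and *Egln1* had passed in males under TMM. The cause was not tested.

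Without 1 library, the sign of some values turned, and none of these passed on either side. In females, *Pklr* ran from -0.11 to 0.11, *Ldha* from -0.11 to 0.095, *Slc2a1* from -0.11 to 0.036 and *Hk3* from -0.39 to 0.0010. *Hk2* between SIRT6-tg males and females ran from -0.087 to 0.20, *Txnip* in males from -0.027 to 0.32, and *Sirt6* between WT males and females from -0.15 to 0.24.

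Of the 83 pathway genes, 21 were called higher and 15 lower in males, where upper-quartile scaling gave 6 and 15, the 2 groups alone 8 and 14, DESeq2 17 and 15, and no filter 16 and 11. Library size alone gave 0 and 16, and between WT males and females 24 and 4 in place of 7 and 7. Leaving out 1 library gave 8 to 21 higher and 11 to 15 lower, with 8 and 12 without male WT mouse 4.

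The replicate numbers did not pair the mice: at most 3 of 7 correlations between libraries of the same number were over 0.1. With the replicate number as a block, 4 of the 8 genes were called in males and 1 in the difference, where *Hk2* passed (adjusted p = 0.0459) and *Pfkl* did not (0.0734). *Pklr* and *Ldha* in females were then at -0.017 and -0.0096, and *Sirt6* between WT males and females at 0.0017. Over all 28 libraries together, the order of levels per kb was the same with the longest transcript as the length. In male SIRT6-tg livers alone, the mean level of *Pklr* was then above that of *Slc2a2*, and that of *Pfkl* above that of *Hif1a*. This alternative was added after the data were seen. With 7 mice a group, changes as small as that of *Hif1a* in males (0.14 ± 0.08, SE) were not resolved.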
